A study of Mus musculus with 9 samples.

Results

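The immediate-early genes Fos, Fosb, Fosl1, Jun, Junb, Egr1, Ier2, Ier3, Dusp1 and Myc were followed in a pair of mouse prostate epithelial lines. Their probe sets were all those of the array whose platform gene symbol was one of these 10 names, which gave 13 of the 12422 probe sets and 10 of the 8251 genes with a probe set of their own. A probe set is the group of short probes that reports 1 transcript on this kind of single-channel array. Of the 13, 11 were tested for differences. The second probe sets of Fos (161716_at) and Egr1 (161802_i_at) lay below the floor of 197, the percentile 25 of all intensities, on all 9 arrays. Of the 11 tested, 10 lay above the floor on all 9 arrays, and Fos (160901_at) lay above it on 8.

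The arrays came from the line named Rb-/-PrE, called Rb-null here, and the line named wtPrE, called wild-type. Cells grew in RPMI-1640 medium that held 5% fetal bovine serum, or had been without serum for 48 hours. There were 2 Rb-null and 3 wild-type arrays in serum, and 2 Rb-null and 2 wild-type arrays without serum. A genotype is represented by 1 line, and nothing in the labels tells whether its arrays are separate cultures, so p-values measure only the spread between these arrays.

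The Rb1 probe set 97948_at lay between 112 and 166 in the Rb-null arrays, against 361 to 713 in the wild-type arrays. No Rb-null array reached the floor. Set against the floor, the wild-type mean made Rb1 at least 2.15-fold lower in the Rb-null line over both media (limma, adjusted p = 0.000923), and at least 1.93-fold lower without wild-type serum array 1. The second Rb1 probe set was below the floor on all arrays, and the deleted part of the gene is not stated in the labels. All 10 epithelial markers were above the floor on every array, Krt8 at 7877 to 10863 and Cdh1 at 1307 to 2401. Acta2, Myh11, Pdgfrb, Tek, Ptprc and Lyz2, which mark smooth muscle, pericytes, endothelium and leukocytes, were below the floor on every array. Other markers of these types were not: 5 of 8 mesenchymal and smooth muscle, 3 of 5 endothelial and 3 of 6 leukocyte markers lay above it on all 9 arrays, among them Col1a1 (804 to 1067), Kdr (578 to 786) and Cd3e (780 to 968). Array 1 of wild-type serum stood apart, with Spearman correlations of 0.9859 and 0.9835 with the other wild-type serum arrays, against 0.9943 to 0.9975 for the other replicate pairs. For the genes named below, calls that depend on it, and called differences that it moved by about 0.1 or more on the log2 scale, are given with and without it. Ccn1 on withdrawal in the wild-type line is given only with it.

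Immediate-early genes are transcribed within minutes of a growth signal without new protein synthesis, and in resting cells their mRNAs are scarce and short-lived. Serum acts through the ERK cascade and serum response factor to switch on Fos, Egr1 and Junb. The Fos and Jun proteins pair to form the transcription factor AP-1, Egr1 and Myc are transcription factors of their own, and Dusp1 removes phosphate from MAP kinases and so damps the signal. The retinoblastoma protein Rb restrains E2F factors and entry into the DNA synthesis phase of the cell cycle.

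The promoters of 6 of the 10 genes were taken from the RefSeq promoter table of mouse assembly GRCm38.p6. Each is a window of 300 bases, from 250 before to 50 after the start of the gene. Of these 6, those of Fos, Junb, Ier3 and Dusp1 are printed because these genes were lower in the Rb-null line in both media. That of Jun is printed because no difference of it passed the test. Fos lies at chr12:85473640-85473939 on the plus strand, Junb at chr8:84978699-84978998 on the minus strand and Ier3 at chr17:35821463-35821762 on the plus strand. Dusp1 lies at chr17:26508423-26508722 and Jun at chr4:95052173-95052472, both on the minus strand. All are written 5′ to 3′ along the gene. Capitals mark TGACG, the core of the cyclic AMP response element, TGACGTCA, the full element, TATAAA, the TATA box, and CACGTG, the E-box that Myc and Max can bind.
Fos: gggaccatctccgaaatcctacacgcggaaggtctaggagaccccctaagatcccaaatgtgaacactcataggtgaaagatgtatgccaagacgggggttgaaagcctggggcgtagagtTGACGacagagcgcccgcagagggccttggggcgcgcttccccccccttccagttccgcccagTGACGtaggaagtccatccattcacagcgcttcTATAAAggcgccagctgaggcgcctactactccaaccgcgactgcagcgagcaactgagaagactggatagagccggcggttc
Junb: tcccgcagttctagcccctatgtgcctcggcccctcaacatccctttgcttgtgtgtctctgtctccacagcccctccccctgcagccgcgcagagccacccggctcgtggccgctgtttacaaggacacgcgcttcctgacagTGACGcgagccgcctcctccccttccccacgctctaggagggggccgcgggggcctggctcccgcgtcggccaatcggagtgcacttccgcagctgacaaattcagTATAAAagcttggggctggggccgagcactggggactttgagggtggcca
Ier3: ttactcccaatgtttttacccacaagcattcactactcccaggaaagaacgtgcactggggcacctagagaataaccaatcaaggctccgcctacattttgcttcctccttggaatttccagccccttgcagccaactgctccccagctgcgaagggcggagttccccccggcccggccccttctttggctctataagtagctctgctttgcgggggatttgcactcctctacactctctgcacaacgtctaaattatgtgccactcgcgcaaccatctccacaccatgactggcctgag
Dusp1: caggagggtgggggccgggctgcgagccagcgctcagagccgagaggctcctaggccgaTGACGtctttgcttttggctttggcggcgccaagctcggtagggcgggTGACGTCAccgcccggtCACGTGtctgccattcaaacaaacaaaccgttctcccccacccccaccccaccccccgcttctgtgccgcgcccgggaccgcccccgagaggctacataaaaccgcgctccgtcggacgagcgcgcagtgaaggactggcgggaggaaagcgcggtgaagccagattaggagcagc
Jun: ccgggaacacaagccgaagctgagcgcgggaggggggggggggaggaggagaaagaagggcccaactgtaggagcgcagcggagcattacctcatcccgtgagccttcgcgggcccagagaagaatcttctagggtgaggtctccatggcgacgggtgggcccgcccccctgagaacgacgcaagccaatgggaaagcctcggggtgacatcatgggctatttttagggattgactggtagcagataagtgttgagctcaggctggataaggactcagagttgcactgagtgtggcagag
TGACG, searched on both strands, was in 4 of the 6 windows (Fos, Fosb, Junb and Dusp1), against 20.8% of all 32851 windows of the table. Fos held it at 2 places, 129 and 66 bases before the start, and Dusp1 held it at 3, a pair of which are the overlapping strands of 1 TGACGTCA. TATAAA was in the windows of Fos, 33 bases before the start, and of Junb, at the annotated start itself, against 13.6% of all windows. The CArG box bound by serum response factor and the AP-1 site TGACTCA or TGAGTCA were in none of the 6 windows, against 1.63% and 5.2% of all windows. Forms of the AP-1 site with other letters were not searched for. The serum response element of Fos is known to lie upstream of this window, so the absence covers these 300 bases only. The window of Egr1 was not among the 6, so the motif counts do not cover that gene. The E2F letters TTTCCCGC, TTTCGCGC, TTTGCCGC or TTTGGCGC were in none of the 6, against 2.26% of all windows. Matches are letters in a window, and binding was not measured.

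Fos itself was low in serum, much higher without serum in the wild-type line, and without a called difference between media in the Rb-null line. Its deposited intensities were 199 and 170 in Rb-null serum and 315, 275 and 258 in wild-type serum. Without serum they were 261 and 252 in the Rb-null line, against 1049 and 770 in the wild-type line. The wild-type serum-free arrays stood above all 7 others, and the Rb-null serum-free arrays lay within or next to the range of wild-type serum.

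On normalized values, Fos was lower in the Rb-null line by -1.87 ± 0.15 on the log2 scale without serum (difference ± SE, limma with Benjamini-Hochberg adjustment over 9686 probe sets, adjusted p = 5.1e-05), a 3.65-fold difference. In serum the difference was -0.49 ± 0.14 (adjusted p = 0.031), and -0.39 without wild-type serum array 1 (adjusted p = 0.0296). Because 1 of the Rb-null serum arrays lay below the floor, the difference in serum depends on where the floor is set. It was -0.61 with the floor at percentile 10 (adjusted p = 0.0181), and with the floor at percentile 40 all serum arrays were at the floor. The call in serum was also lost without wild-type serum array 2 (adjusted p = 0.0605), Rb-null serum array 1 (0.145) or Rb-null serum array 2 (0.167).

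Fos rose on serum withdrawal in the wild-type line by 1.79 ± 0.14 (adjusted p = 4e-05), or 3.46-fold, and by 1.89 without wild-type serum array 1. In the Rb-null line the same contrast gave 0.42 ± 0.15 (adjusted p = 0.115), and without wild-type serum array 1 its adjusted p was 0.0389. The interaction, withdrawal in the Rb-null line minus withdrawal in the wild-type line, was -1.37 ± 0.21 (adjusted p = 0.0203), with a 95% confidence interval of -1.84 to -0.91. This call was lost with no filter on dim probe sets (adjusted p = 0.108) and without any 1 of 6 arrays, with an adjusted p of 0.0649 without wild-type serum array 2 and 0.0646 without wild-type serum-free array 1. It was 0.122 and 0.129 without Rb-null serum array 1 or 2, and 0.0746 and 0.105 without Rb-null serum-free array 1 or 2. The estimate stayed between -1.15 and -1.38 in these 6 refits and was -1.47 without wild-type serum array 1 (adjusted p = 0.00355).

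**Figure D1:**
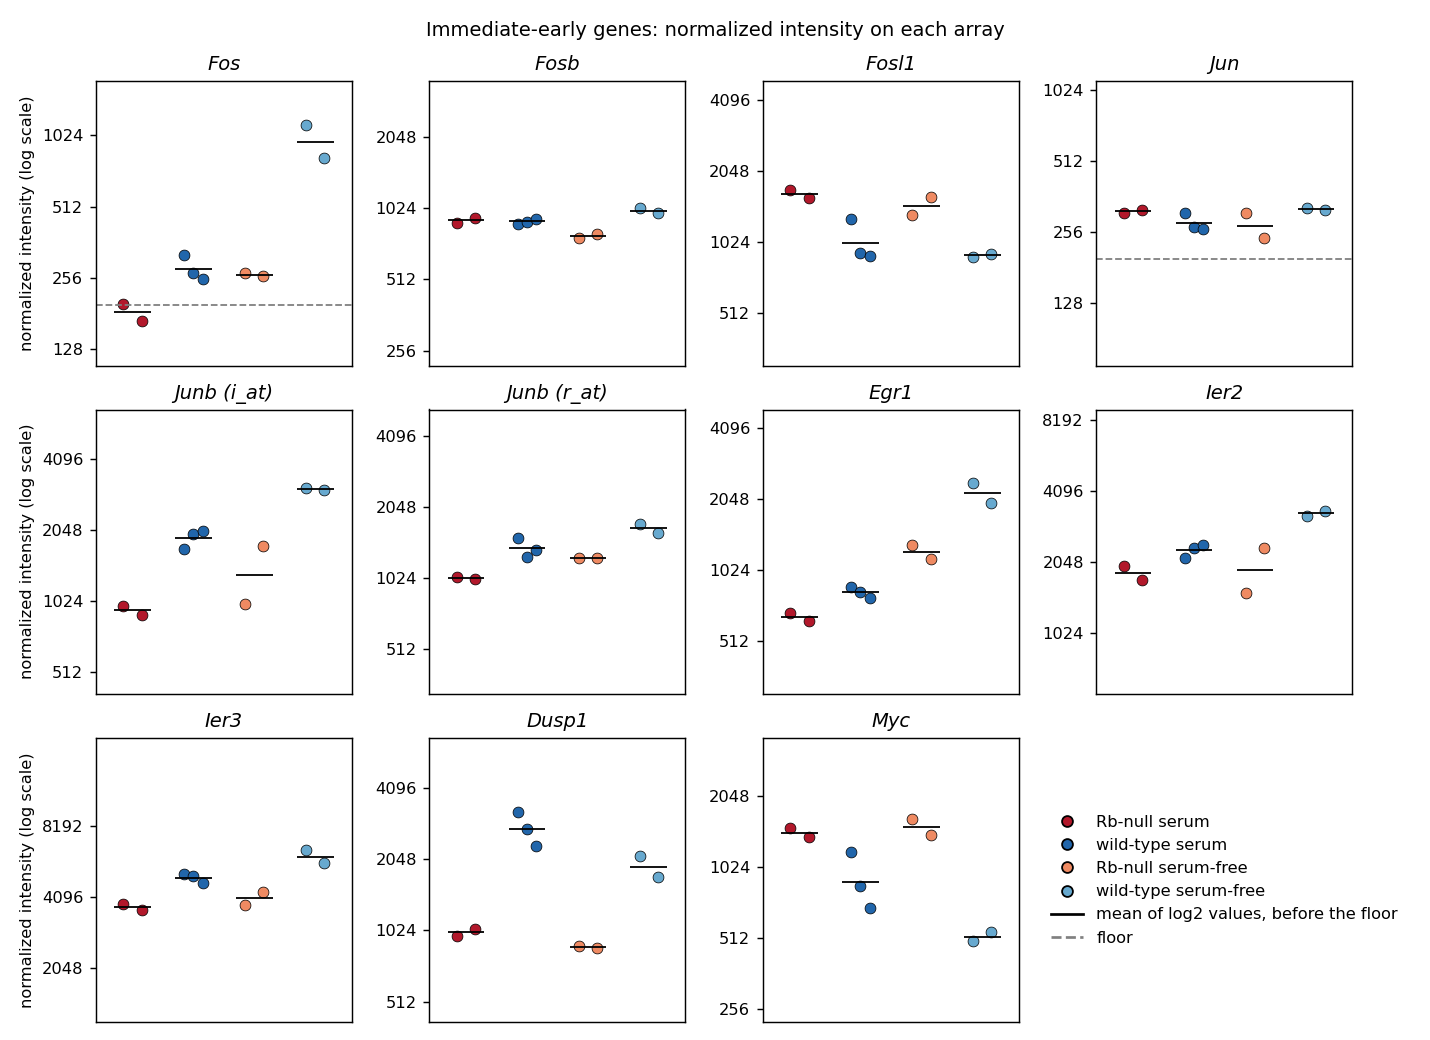
Normalized intensity of each tested probe set on each array (vertical axis, log scale, every panel spanning the same fold range), with 1 point per array coloured by group, the mean of log2 values as a bar and the floor of 197 as a dashed line where it falls in the panel. Fos and Egr1 are highest in the wild-type serum-free arrays, Dusp1 is lower in all 4 Rb-null arrays, and Myc and Fosl1 are higher in them.

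The other Fos family genes differed in how far they followed Fos. Over the 9 arrays, Fosl1 had a Pearson correlation of -0.651 with Fos, and Fosb one of 0.61. Fosl1, which encodes Fra-1, an AP-1 subunit that itself can be induced by AP-1, read 1870 and 1654 in Rb-null serum and 1306, 899 and 855 in wild-type serum. Without serum it read 1429 and 1665 in the Rb-null line and 839 and 852 in the wild-type line. All 4 Rb-null arrays were above all 5 wild-type arrays. The Rb-null line was higher by 0.68 ± 0.15 in serum (adjusted p = 0.0104), which was 0.84 without wild-type serum array 1, and by 0.70 ± 0.16 without serum (adjusted p = 0.0131). The call in serum was lost without Rb-null serum array 1 (adjusted p = 0.0944) or 2 (0.0594). That without serum was lost without wild-type serum-free array 1 (0.0856) or 2 (0.0645), or Rb-null serum-free array 2 (0.0797). Withdrawal gave -0.16 in the Rb-null line and -0.18 in the wild-type line, with adjusted p of 0.668 and 0.483.

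Fosb, a close relative of Fos, was nearly flat at 945 and 974 in Rb-null serum, 886, 877 and 885 in wild-type serum, 797 and 815 in Rb-null serum-free and 958 and 905 in wild-type serum-free. Its serum-free groups did not overlap. The difference there was -0.36 ± 0.08 (adjusted p = 0.0124), lost without wild-type serum-free array 1 (0.0897) or Rb-null serum-free array 1 (0.0746) and on values as deposited (-0.21, adjusted p = 0.0874). In serum the difference was 0.02 (adjusted p = 0.9). Withdrawal gave -0.22 in the Rb-null line (adjusted p = 0.122), and without wild-type serum array 1 that adjusted p was 0.0421. The difference averaged over media was -0.17 (adjusted p = 0.0352), a call that was lost in 8 of the 9 refits without 1 array, kept without wild-type serum array 1, and lost on values as deposited (-0.04, adjusted p = 0.561).

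Junb, an AP-1 subunit that can oppose Jun, was lower in the Rb-null line on both of its probe sets. Probe set 102362_i_at read 1046 and 928 in Rb-null serum and 1736, 1878 and 1879 in wild-type serum. It read 1041 and 1834 in Rb-null serum-free and 2748 and 2755 in wild-type serum-free. The groups did not overlap in either medium, although the Rb-null serum-free arrays were themselves far apart. The difference was -1.01 ± 0.20 in serum (adjusted p = 0.00565) and -1.21 ± 0.21 without serum (adjusted p = 0.00349), and the first was lost without Rb-null serum array 2 (0.0627).

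Probe set 102363_r_at, for which some probe selection rules had been dropped in the array's design, read 1099 and 1054 in Rb-null serum and 1557, 1214 and 1252 in wild-type serum. It read 1327 and 1304 in Rb-null serum-free and 1576 and 1434 in wild-type serum-free. Its differences of -0.42 ± 0.09 in serum (adjusted p = 0.0096), or -0.35 without wild-type serum array 1, and -0.41 ± 0.10 without serum (adjusted p = 0.0147) had the same direction and were smaller than those of the first probe set. The call in serum was lost without Rb-null serum array 1 (0.0656) or 2 (0.0888), and that without serum without wild-type serum-free array 1 (0.11) or Rb-null serum-free array 1 (0.0746) or 2 (0.0563). On values as deposited the differences were -0.31 (adjusted p = 0.0763) and -0.19 (adjusted p = 0.267).

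On withdrawal in the wild-type line 102362_i_at rose by 0.69 ± 0.20 (adjusted p = 0.0418), and 102363_r_at gave 0.28 ± 0.09 (adjusted p = 0.0739). Without wild-type serum array 1 the first was 0.61 (adjusted p = 0.0632) and the second 0.35 (adjusted p = 0.00603), and among the refits without 1 array the first kept its call only without Rb-null serum-free array 1 or 2. In the Rb-null line the pair gave 0.49 (adjusted p = 0.193) and 0.29 (adjusted p = 0.1). Without Rb-null serum-free array 1 the first was 0.90 (adjusted p = 0.00569), and without wild-type serum array 1 the second had an adjusted p of 0.0146.

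Jun, the main partner of Fos in AP-1, read 311 and 324 in Rb-null serum and 305, 276 and 271 in wild-type serum. Without serum it read 301 and 235 in the Rb-null line and 324 and 310 in the wild-type line. No contrast of Jun passed the test, with intervals of -0.08 to 0.40 for the genotype difference in serum and -0.50 to 0.03 without serum. Without Rb-null serum-free array 1 the difference without serum was -0.41 (adjusted p = 0.0454).

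Egr1, a zinc finger factor whose promoter is a classic target of serum response factor, was higher without serum in both lines. It read 704 and 651 in Rb-null serum and 874, 810 and 754 in wild-type serum. Without serum it read 1399 and 1183 in the Rb-null line and 2154 and 1784 in the wild-type line. The 4 groups did not overlap with one another. On withdrawal Egr1 rose by 0.92 ± 0.12 in the Rb-null line (adjusted p = 0.00101), or 1.89-fold, and by 1.40 ± 0.11 in the wild-type line (adjusted p = 3.8e-05), or 2.65-fold. The interaction was -0.49 ± 0.16 (adjusted p = 0.269), so the sizes of the change in the lines were not distinguished. The Rb-null line was lower by -0.83 ± 0.12 without serum (adjusted p = 0.00116) and by -0.35 ± 0.11 in serum (adjusted p = 0.0445). The call in serum was lost without wild-type serum array 2 (0.103) or 3 (0.0589), Rb-null serum array 1 (0.128) or 2 (0.267), or Rb-null serum-free array 2 (0.0502), and on values as deposited (-0.26, adjusted p = 0.144).

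Ier2 and Ier3 are small immediate early response genes, and Ier3 (also IEX-1) acts on cell survival. Ier2 read 2178 and 1821 in Rb-null serum and 2166, 2245 and 2261 in wild-type serum. It read 1625 and 2416 in Rb-null serum-free and 2875 and 3079 in wild-type serum-free. The serum-free groups did not overlap. In serum 1 Rb-null array exceeded 1 wild-type array on deposited values, and none did after normalization. The Rb-null line was lower by -0.80 ± 0.17 without serum (adjusted p = 0.00898), lost without wild-type serum-free array 1 (0.0555) or 2 (0.063). In serum the difference was -0.32 ± 0.16 (adjusted p = 0.181). Without Rb-null serum-free array 1 or 2 its adjusted p was 0.0355 or 0.0361. Ier2 on withdrawal in the wild-type line gave 0.52 ± 0.16 (adjusted p = 0.0539), and without Rb-null serum-free array 1 or 2 that adjusted p was 0.00671 or 0.00706.

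Ier3 read 4277 and 3892 in Rb-null serum and 5048, 4909 and 4414 in wild-type serum. It read 3972 and 4389 in Rb-null serum-free and 5825 and 5374 in wild-type serum-free. Every Rb-null array was below every wild-type array. The difference was -0.41 ± 0.08 in serum (adjusted p = 0.00556), lost without Rb-null serum array 2 (0.0689) and on values as deposited (-0.23, adjusted p = 0.0754), and -0.59 ± 0.09 without serum (adjusted p = 0.00148). On withdrawal Ier3 rose in the wild-type line by 0.29 ± 0.08 (adjusted p = 0.0345). That call was kept without wild-type serum array 1 (0.32, adjusted p = 0.0214) and without either Rb-null serum-free array, and lost without any other array (0.0509 to 0.289).

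Dusp1, the MAP kinase phosphatase also called MKP-1, was lower in the Rb-null line in both media. It read 1037 and 1089 in Rb-null serum and 3320, 2621 and 2193 in wild-type serum. Without serum it read 923 and 878 in the Rb-null line and 1909 and 1556 in the wild-type line. No Rb-null array reached the lowest wild-type array. The difference was -1.45 ± 0.14 in serum (adjusted p = 0.000102), or 2.74-fold, which was -1.33 without wild-type serum array 1, and -1.13 ± 0.15 without serum (adjusted p = 0.000821), or 2.19-fold.

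Unlike Fos and Egr1, Dusp1 fell on withdrawal in the wild-type line, by -0.53 ± 0.14 (adjusted p = 0.0283). This call was kept without wild-type serum array 1 (-0.41, adjusted p = 0.0261), wild-type serum array 3 or Rb-null serum-free array 2, and lost without any of the other 6 arrays (adjusted p = 0.05 to 0.257). In the Rb-null line the contrast gave -0.21 (adjusted p = 0.499), and the interaction was 0.32 (adjusted p = 0.601).

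Myc, which drives growth and ribosome production, was higher in the Rb-null line. It read 1634 and 1444 in Rb-null serum and 1212, 841 and 670 in wild-type serum. Without serum it read 1762 and 1471 in the Rb-null line and 484 and 518 in the wild-type line. Every Rb-null array was above every wild-type array, and the wild-type serum arrays were the most spread. The Rb-null line was higher by 1.54 ± 0.21 without serum (adjusted p = 0.000989), or 2.92-fold, and by 0.69 ± 0.19 in serum (adjusted p = 0.0307).

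The serum value was 0.90 without wild-type serum array 1 (adjusted p = 0.000362), and the call was lost without any other array except the Rb-null serum-free ones (adjusted p = 0.0546 to 0.178). On withdrawal Myc fell in the wild-type line by -0.78 ± 0.19 (adjusted p = 0.0248). Without wild-type serum array 1 this was -0.56 (adjusted p = 0.00813), and the call was lost without wild-type serum-free array 1 (0.175) or 2 (0.12). In the Rb-null line the contrast gave 0.08 ± 0.21 (adjusted p = 0.918). The interaction was 0.85 ± 0.29 (adjusted p = 0.29), so no difference between the lines in the response of Myc passed the test.

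Counted over the 11 tested probe sets, the genotype difference averaged over media passed the threshold for 10, of which 2 were higher and 8 lower in the Rb-null line. The higher ones were Fosl1 and Myc, and Jun did not pass. Over all probe sets tested, 45.2% passed, 21.8% higher and 23.4% lower. The median log2 difference was -0.50 for the immediate-early probe sets and -0.05 for all tested.

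In serum, 8 of the 11 passed, 2 higher and 6 lower, beside 23.6% of all probe sets, 13.2% higher and 10.4% lower. Without Rb-null serum array 2, only 1 of the 11 passed, which was Dusp1. Without serum, 10 passed, 2 higher and 8 lower, beside 30.7% of all, 16.8% higher and 13.9% lower. Without wild-type serum-free array 1, 6 passed. These comparisons share no arrays with each other, but all groups share 1 estimate of the spread in the fit, so they are not independent. The averaged difference is made from both.

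The deposited scale matters for the split. On values as deposited, 69.3% of all calls of the averaged difference were higher in the Rb-null line, against 48.1% after quantile normalization.

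**Figure D2:**
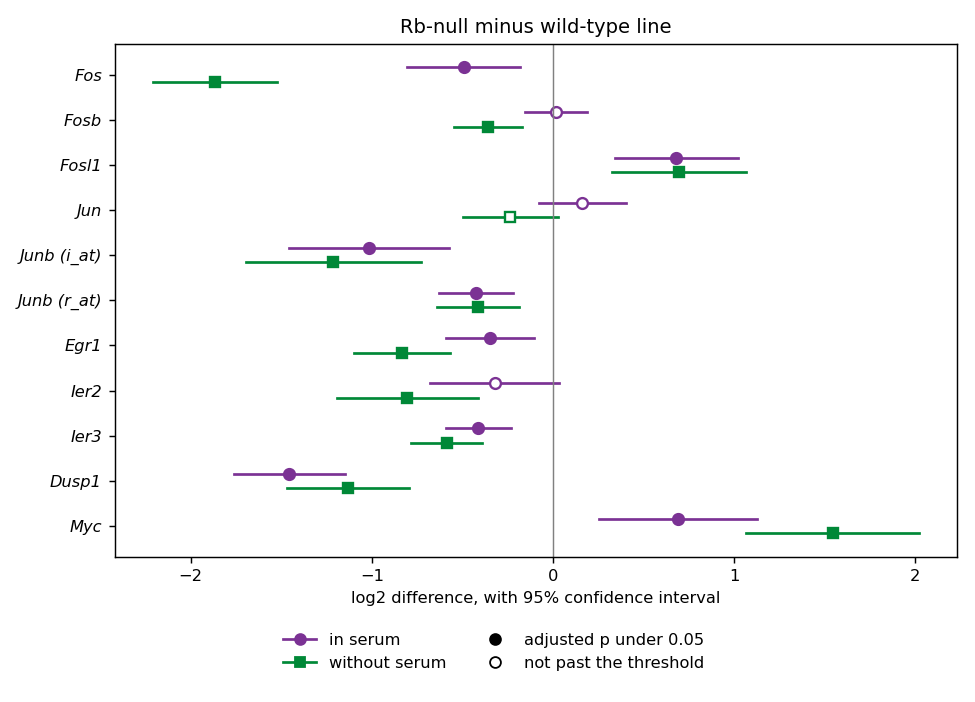
Log2 difference, Rb-null minus wild-type, of each tested probe set (horizontal axis), in serum (purple circles) and without serum (green squares), with 95% confidence intervals and filled symbols where the adjusted p is under 0.05. Fos, Egr1 and Myc lie farther from 0 without serum than in serum, a difference that passed the test of the interaction for Fos only, Dusp1 lies at -1.45 and -1.13, and Jun crosses 0 in both media.

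Serum withdrawal changed 1 of the 11 probe sets in the Rb-null line, Egr1, beside 13.9% of all probe sets, 7.5% higher and 6.42% lower. In the wild-type line it changed 6, of which 4 (Fos, Egr1, Ier3 and Junb 102362_i_at) rose and 2 (Dusp1 and Myc) fell. Of all probe sets, 15.9% passed in the wild-type line, 6.61% higher and 9.25% lower. The count was 4 in the Rb-null line without wild-type serum array 1, and 2 in the wild-type line without either wild-type serum-free array. The median over the 11 was 0.08 in the Rb-null line and 0.28 in the wild-type line, beside 0.000225 for all tested probe sets in the Rb-null line and 0.05 in the wild-type line.

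The counts of the lines do not by themselves show a difference between them. The interaction passed for 1 of the 11, Fos, beside 0.929% of all probe sets, 0.454% higher and 0.475% lower. For Egr1, Ier2, Fosb, Jun and Myc it lay between -0.49 and 0.85 with adjusted p of 0.22 to 0.506.

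**Figure D3:**
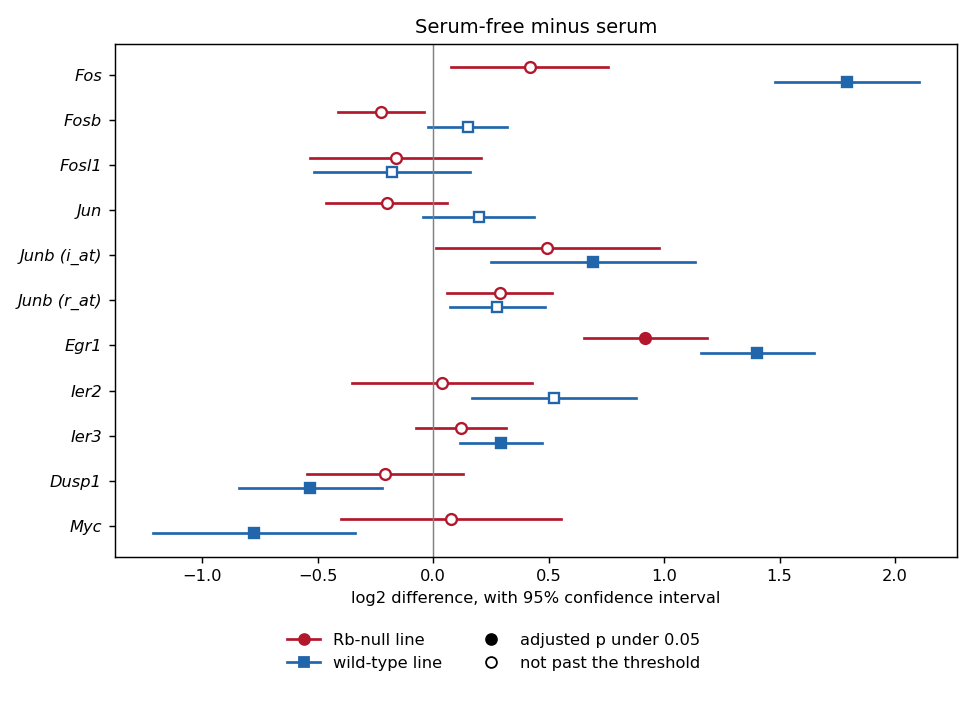
Log2 difference between serum-free and serum arrays for each tested probe set (horizontal axis), in the Rb-null line and in the wild-type line, with 95% confidence intervals and filled symbols where the adjusted p is under 0.05. Fos lies at 0.42 in the Rb-null line and 1.79 in the wild-type line, and Egr1 is the only probe set past the threshold in both.

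The members split into groups by their pattern over the 9 arrays, which is given as a description because the arrays share the same lines and media. Junb (102362_i_at) had a Pearson correlation of 0.949 with Ier2 and 0.948 with Ier3, and Fos one of 0.919 with Egr1. Fosl1 and Myc had one of 0.903, and Junb and Myc one of -0.903. Jun was close to 0 with Junb (-0.092) and Ier2 (-0.007). By mean normalized level, Fos, Junb, Ier2 and Ier3 had one order, which ran from Rb-null serum through Rb-null serum-free and wild-type serum to wild-type serum-free. Neighbours in that order overlapped between Rb-null serum-free and wild-type serum for Fos, Junb and Ier2, and between the Rb-null groups for Ier2 and Ier3. Egr1 had both serum-free groups on top. Dusp1 ran from Rb-null serum-free through Rb-null serum and wild-type serum-free to wild-type serum, and Myc from wild-type serum-free through wild-type serum and Rb-null serum to Rb-null serum-free, with its Rb-null groups overlapping.

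Of other single-gene probe sets, the closest to Fos over the 9 arrays were Col18a1 (r = 0.9825), which encodes the collagen that carries endostatin, Ace (0.9697) and Parm1 (0.9674). Ace averaged at the floor in 3 of the 4 groups, so its likeness rests on the wild-type serum-free arrays. Col18a1 averaged 2709 in Rb-null serum-free and 4755 in wild-type serum-free on the normalized scale. The closest to Myc were Rbms1 (0.9927), Hnrnph2 (0.9917) and Timm44 (0.9882).

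**Figure D4:**
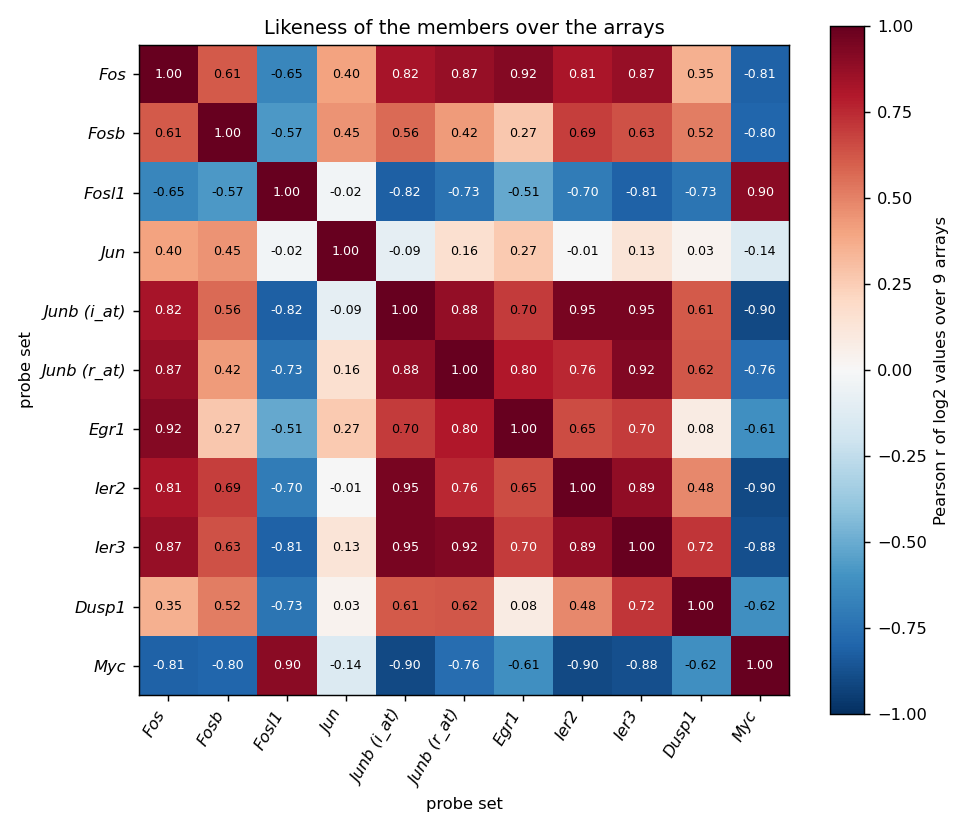
Pearson correlation over the 9 arrays between each pair of tested immediate-early probe sets, on log2 normalized intensity, with colour and printed value giving r. Junb, Ier2 and Ier3 are positively correlated with Fos and Egr1, Myc and Fosl1 are negatively correlated with them, and Jun has low values with most.

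The genes around the immediate-early ones were counted from lists, with the brightest tested probe set of each gene, and 24 listed symbols with no single-gene probe set, Srf among them, were not analysed here. The shares of all probe sets given above are the background for these counts. Of 8 other AP-1 and bZIP factors tested, 2 were higher and 2 lower in the Rb-null line over both media. Atf3, a stress-induced bZIP factor, read 1577 and 1961 in Rb-null serum-free and 398 and 412 in wild-type serum-free on probe set 104155_f_at (2.01, adjusted p = 5.2e-06). On the same probe set Atf3 gave 1.73 in serum (adjusted p = 7.8e-06). Its other probe sets disagreed, at 0.29 and -0.40 for the averaged difference against 1.87 for this one, which carries the family suffix for probes shared with related transcripts. Maff, a small Maf protein, was lower in serum (-0.73, adjusted p = 0.000522).

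Of 11 other serum-response transcription factors tested, 7 were higher and 3 lower, with a median of 0.25. Of 16 feedback regulators, 3 were higher and 8 lower, with a median of -0.17. Zfp36l2, which binds AU-rich mRNAs and promotes their decay, read 2432 and 2261 in Rb-null serum and 4234, 3953 and 3800 in wild-type serum (-0.93, adjusted p = 1.1e-05). Without serum Zfp36l2 gave -0.73 (adjusted p = 0.000109). Its other probe sets gave -1.26 and -0.61 for the averaged difference, beside -0.83 for this one.

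The list of secreted and membrane serum-response products also holds genes of intracellular proteins, such as Sgk1, Odc1 and Rhob. Of its 16 genes tested, 6 were higher and 6 lower. Ptgs2, the inducible cyclooxygenase, read 2799 and 3057 in Rb-null serum and 358, 265 and 229 in wild-type serum. It was higher by 3.28 ± 0.20 in serum (adjusted p = 7.2e-06), or 3.47 without wild-type serum array 1, and by 2.62 ± 0.22 without serum (adjusted p = 5.8e-05), and no Rb-null array overlapped a wild-type one. Sgk1, a serum- and glucocorticoid-inducible kinase, was higher by 2.08 in serum and 1.54 without serum. Epha2, an ephrin receptor, was lower by -1.08 in serum and -1.28 without serum. Ccn1, a matrix protein once named Cyr61, was lower without serum (-0.998, adjusted p = 0.000925).

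Of 10 AP-1 target genes tested, 2 were higher and 1 lower. Sprr1a, a cornified envelope protein, read 8146 and 7726 in Rb-null serum and 2244, 1889 and 1951 in wild-type serum (1.82, adjusted p = 1.9e-06). Without serum Sprr1a gave 1.45 (adjusted p = 1.9e-05). Ccnd1, cyclin D1, read 3873 and 3783 in Rb-null serum-free and 6536 and 6969 in wild-type serum-free (-0.99, adjusted p = 4.8e-06). In serum Ccnd1 gave -0.56 (adjusted p = 0.000101). Of 9 genes of the SRF and ERK pathway, 1 was higher and 3 lower.

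Of 13 Myc target genes tested, 6 were higher and 1 lower, with a median of 0.08. Of 10 Myc partners and antagonists, 2 were higher and 2 lower, Max (0.40, adjusted p = 0.0226) among the higher. Without wild-type serum array 1, Max also passed in serum (0.49, adjusted p = 0.00659) and without serum (0.47, adjusted p = 0.00712). The averaged call for Max was lost without wild-type serum-free array 2 (0.0932), Rb-null serum array 1 (0.0638) or 2 (0.0688), or Rb-null serum-free array 2 (0.0781).

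On serum withdrawal, 4 of 13 Myc target genes fell in the Rb-null line (median -0.22) and 8 of 13 in the wild-type line (median -0.37), and none rose. Nme1, a nucleoside diphosphate kinase, fell by -0.91 ± 0.14 in the wild-type line (adjusted p = 0.00241), or -0.76 without wild-type serum array 1, on a probe set with the family suffix. Its other probe set gave -0.17 (adjusted p = 0.476). Odc1, the polyamine enzyme ornithine decarboxylase and itself a known Myc target, fell by -0.98 in the Rb-null line (adjusted p = 0.00476) and by -0.80 in the wild-type line (adjusted p = 0.00757), or -0.70 without wild-type serum array 1. The first call was lost without Rb-null serum array 2 (0.0559) and the second without wild-type serum-free array 1 (-0.55, 0.083).

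Of the genes in the list of secreted and membrane products, 1 rose and 7 fell in the Rb-null line, and 3 rose and 4 fell in the wild-type line. Vegfa, the vascular growth factor, rose by 1.27 ± 0.21 in the Rb-null line (adjusted p = 0.00403), where Ccn1 fell by -1.42 and Ccn2, a matrix protein once named Ctgf, by -1.05. In the wild-type line Ccn2 fell by -0.76 (adjusted p = 5.1e-05) and Ccn1 by -0.50 (adjusted p = 0.0248). The value of Ccn1 there without wild-type serum array 1 is not given. Rhob, a small GTPase, rose by 0.65 ± 0.09 in the wild-type line (adjusted p = 0.00121). Of the AP-1 target genes, 1 rose and 3 fell in the Rb-null line and 1 rose and 1 fell in the wild-type line. Cd44, an adhesion receptor, fell there by -0.83 (adjusted p = 0.022), or -0.95 without wild-type serum array 1, and lost its call without wild-type serum array 2 (0.0622) or wild-type serum-free array 1 (0.1) or 2 (0.17).

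Of the feedback regulators, 2 rose and 2 fell in the Rb-null line and 5 rose and 1 fell in the wild-type line. Gadd45a, a growth-arrest gene, rose by 1.13 ± 0.07 in the Rb-null line and 0.87 ± 0.07 in the wild-type line. Btg1, an antiproliferative gene, rose by 0.71 ± 0.08 in the Rb-null line (adjusted p = 0.000331) and by 0.70 ± 0.07 in the wild-type line. Of the other bZIP factors, 2 rose and 1 fell in the Rb-null line and 2 rose in the wild-type line. Cebpb rose by 1.11 ± 0.11 in the Rb-null line (adjusted p = 0.000238) and by 0.63 ± 0.10 in the wild-type line (adjusted p = 0.00281). Of the other serum-response transcription factors, 3 rose in the Rb-null line and 2 in the wild-type line. In the SRF and ERK pathway 1 rose and 1 fell in the Rb-null line and 1 fell in the wild-type line. Of the Myc partners, 2 rose in the Rb-null line and 1 in the wild-type line.

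The interaction passed for 4 listed genes, Il1rn (0.47, adjusted p = 0.033), Ccnd1 (-0.43, 0.0397), Cebpd (-0.49, 0.0395) and Rhob (-0.71, 0.0487). Each of these calls was lost without any 1 array except wild-type serum array 1, with adjusted p of 0.0604 to 0.272. Of 7 other processings, 6 lost the calls of Il1rn, Ccnd1 and Rhob each, and 4 that of Cebpd. Il1rn had a value of 0.11 with the floor at percentile 10, Cebpd one of -0.13 with the floor at percentile 40 (adjusted p = 0.428), and the second Ccnd1 probe set gave 0.18.

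**Figure D5:**
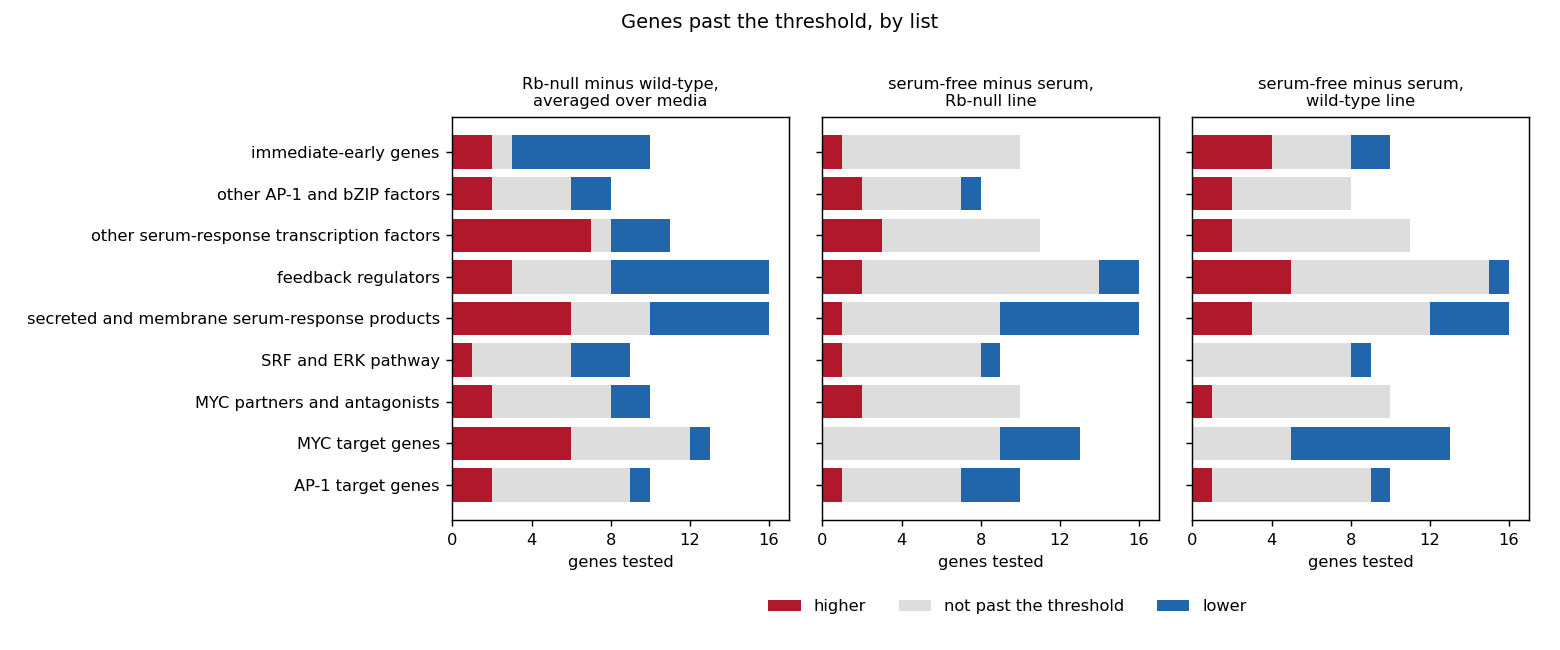
Number of genes tested in each list (horizontal axis) that were higher (red), lower (blue) or not past an adjusted p of 0.05 (grey), for the genotype difference averaged over media and for serum withdrawal in the Rb-null and in the wild-type line. The immediate-early genes, counted here with 1 probe set a gene, have 7 lower and 2 higher in the first panel, and Myc target genes have 4 and 8 lower on withdrawal in Rb-null and in wild-type cells.

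Marker lists of cell types are given beside these results, as sums of deposited intensities. The summed intensity of the 10 epithelial markers was 40436 to 40454 in Rb-null serum and 32679 to 38763 in wild-type serum, and 37562 to 40736 in Rb-null serum-free and 34163 to 35376 in wild-type serum-free. Within each medium every Rb-null array was above every wild-type array in this sum of deposited values. On normalized values 1 of the 10 was higher in the Rb-null line over both media and none was lower, with a median of 0.04. In serum 2 were higher and 1 lower, and without serum 1 was higher and 1 lower. The summed intensity of the 8 mesenchymal and smooth muscle markers was 3811 to 3949 in Rb-null serum and 3525 to 4426 in wild-type serum, and 3724 to 3832 in Rb-null serum-free and 4198 to 4283 in wild-type serum-free. The 5 endothelial markers summed to 1699 to 1710 in Rb-null serum and 1735 to 2061 in wild-type serum, and to 1541 to 1618 in Rb-null serum-free and 1762 to 1893 in wild-type serum-free. The 6 leukocyte markers summed to 2158 to 2245 in Rb-null serum and 2098 to 2528 in wild-type serum, and to 2207 to 2213 in Rb-null serum-free and 2289 to 2501 in wild-type serum-free. The mesenchymal and leukocyte sums overlapped between the lines in serum and not without serum. Over both media, 2 of 5 tested mesenchymal, 2 of 4 endothelial and 1 of 4 leukocyte markers were lower in the Rb-null line and none was higher. Their part in the differences of the immediate-early genes was not tested. In bulk RNA of a line, fewer cells that express a gene and less of its RNA per cell cannot be told apart.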

How the data were processed

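Total RNA was measured on 9 single-channel arrays, and the deposited table holds a linear intensity for each probe set. The software with which the authors summarised and scaled these intensities is not stated in the labels or the table. No depth applies to arrays, and the number of arrays per group, 2 or 3, limits the precision. Array medians were 445 to 474 and upper quartiles 991 to 1153. Values were quantile normalized between arrays, raised to a floor of 197 (percentile 25 of all values) and taken to log2. Of 12422 probe sets, 1 was empty, and 9686 lay above the floor on at least 2 of the 9 arrays and were tested, for 7063 genes. The platform's annotation, updated through RefSeq gene identifiers, gave 10833 probe sets 1 gene, 396 several and 1193 none.

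One fit of 4 group means was made with limma 3.58.1 in R 4.3.3, with an intensity trend, 5 residual and 4.2 prior degrees of freedom. It gave 6 two-sided contrasts, each with Benjamini-Hochberg adjustment over all tested probe sets, and an adjusted p under 0.05 was the threshold. The fit was tested on simulated data. Groups came from the sample titles. All members are described. Listed genes are named where they were among the 3 highest or 3 lowest of a contrast past the threshold with groups that do not overlap, plus Rb1, Srf and Max. Members and lists were chosen with earlier results of these data known. The alternatives were values as deposited, scaling to a common median, floors at percentile 10 and 40, no filter, no intensity trend, a replicate block and leaving out each array in turn.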

Additional observations from a re-analysis of the deposited data

Results flagged for a closer look

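In the main fit, the response of Fos to serum withdrawal differed between the lines. The interaction, withdrawal in the Rb-null line minus withdrawal in the wild-type line, was -1.37 on the log2 scale (limma, adjusted p = 0.0203), with changes of 0.42 in the Rb-null line and 1.79 in the wild-type line. The interaction was tested for all 11 immediate-early probe sets, and Fos was the only one that passed the threshold. Its call was lost in 7 of the 16 refits, while its estimate stayed between -1.62 and -1.15 in all of them. One of the Rb-null serum arrays lay below the floor for Fos.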

How the results depend on the processing

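Over 66 results of the immediate-early probe sets and 16 refits, 1050 values were recomputed. No difference past the threshold in either fit reversed its direction, and 14 values changed sign with neither fit past it. Of those under another processing, 426 kept their side of the threshold, 28 lost it and 2 gained it, and of those without 1 array 519 kept it, 65 lost it and 10 gained it. For the other named genes, 657 of 736 values kept their side, 73 lost it and 6 gained it, and 2 changed sign with neither fit past it. Of the calls, 9 of 10 for the averaged genotype difference were kept in every refit, 1 of 8 in serum, 6 of 10 without serum, 1 of 1 for withdrawal in the Rb-null line, 2 of 6 in the wild-type line and 0 of 1 for the interaction. Members past the threshold in serum numbered 5 on values as deposited, 5 after scaling to a common median and 5 with no filter on dim probe sets, against 8 as reported. With no filter, which adds probe sets at the floor, they numbered 2 for withdrawal in the wild-type line, against 6, 2 for withdrawal in the Rb-null line, against 1, and 0 for the interaction, against 1. Leaving out 1 array gave 9 to 10 for the averaged difference, 1 to 9 in serum, 6 to 10 without serum, 1 to 4 for withdrawal in the Rb-null line, 2 to 7 in the wild-type line and 0 to 1 for the interaction. The cause of these changes was not tested. Over all probe sets, interaction calls numbered 90 as reported, 57 with the floor at percentile 10, 57 with no intensity trend, 51 with the replicate block and 12 to 255 without 1 array. Without 1 array, calls over all probe sets ranged from 877 to 4376 in serum, 1159 to 4981 without serum, 497 to 2280 for withdrawal in the Rb-null line and 667 to 1963 in the wild-type line. With no filter the calls of Fosl1 without serum (adjusted p = 0.0539), Dusp1 on withdrawal in the wild-type line (0.1) and Myc there (0.104) were lost, and with the floor at percentile 40 that of Rb1 (averaged, 0.126). The share of calls that were higher was 48.1% for the averaged difference, 69.3% on values as deposited and 60.7% after scaling to a common median. In serum it was 55.9%, 73.4% and 68.0% in these settings, without serum 54.8%, 77.6% and 68.1%, and for withdrawal in the wild-type line 41.7%, 25.7% and 36.2%. Arrays with the same replicate number had deviations that correlated between -0.231 and 0.331, so the numbers were not taken to pair samples. With a replicate block, Fosb averaged over media gave -0.16 (adjusted p = 0.0968), and on withdrawal in the wild-type line Ier2 gave 0.56 (adjusted p = 0.0491) and Ier3 0.25 (adjusted p = 0.0954). Intensities near the floor, as those of Fos in serum, give a difference that is bounded by the floor.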
